A study of Mus musculus with 94 samples.

Results

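The 8 genes described here code for proteins of the junctions and the surface of endothelial cells. They are Pecam1, Cdh5, Cldn5, Esam, Egfl7, Emcn, Eng and Ecscr, and they were chosen by name from what is known of endothelial cells. All 8 had a row among the 16069 genes of the table. The study sorted single perivascular adipose tissue-derived stem cells (PV-ADSCs) from the peri-aorta adipose tissue of c57/bl mice at 8 weeks of age, and made a full-length RNA library of each cell. All cells passed 1 gate, CD144-/CD45-/CD29+/Sca1+, and had 1 condition, with no treatment and no genetic change named in the labels. CD144 is VE-cadherin, the protein that Cdh5 codes for, so the gate was set to leave out cells with this protein on their surface. Of the 94 cells of the series, 85 had a column in the table, and the other 9 were not analysed here.

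Endothelial cells line the vessels and hold to each other by adherens junctions, which are built on VE-cadherin, and by tight junctions, which are built on claudins and on adhesion molecules of the immunoglobulin family. These contacts set what passes between the blood and the tissue. Other proteins of the same surface, such as the sialomucin endomucin and the transforming growth factor-β coreceptor endoglin, act on the passage of leukocytes and on the response of the endothelium to its growth factors.

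The cells were divided by Dcn, which codes for decorin, a proteoglycan of the matrix that stromal cells make. Cells with a deposited Dcn value of at least 1000 were called stromal (58 cells), and the others were called other cells (27 cells). The values just under the limit were 88.2, 239 and 269, and those just above it were 6521, 11185 and 23960. Dcn chose the groups, so its values are a description. The labels tie no cell to an animal. All cells therefore count as 1 sample, and differences between cells carry no test. The deposited values are read counts that had been multiplied by factors for groups of genes in each cell. Dividing by these factors gave recovered reads, which were used beside the values. The cells held from 1146945 to 4776510 recovered reads, with a median of 2847986. The medians were 2714449 in the other cells and 2963854 in the stromal cells, whereas the median number of genes above 0 was 1416 in the other cells and 2813 in the stromal cells.

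One cell went against its group. Cell 50 was the stromal cell with the lowest Dcn value, 6521, which was 69 recovered reads multiplied by 94.5. Cells 48 and 20 held 248 and 111 recovered Dcn reads and were other cells. Cell 50 also had the fewest genes of the stromal cells (850), the fewest recovered reads of all cells and 0 of 7 stromal markers at 100 reads. It held 1317 reads of Cd36, 9796 of Fabp4 and 1393 of Gpihbp1, together with 66 reads of Cldn5 and 1 read of Pecam1. It was kept as stromal by the rule. When it was left out, 7 of the 8 genes still had a share of cells at least 25 percentage points higher in the other cells, as with all cells, and when Dcn of at least 10000 was asked, which moved it to the other cells, the number was again 7.

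The label of the groups was checked with marker genes. Of 7 stromal markers (Col1a1, Col1a2, Col3a1, Pdgfra, Lum, Clec3b and Serping1), the other cells held none at 100 reads. Of the longer list of 12, Gsn was at 100 reads in 2 other cells and Igfbp6 in 1. Reads of Col1a1, a chain of type I collagen, were found in 0 of 27 other cells, a count that limits the share holding such reads to at most 11.1%. Of 12 stromal markers, 9 had a share at least 25 points higher in the stromal cells, among them Col1a1 (57 of 58 cells). The exceptions Gsn, Col3a1 and Igfbp6 were above 0 in 27, 24 and 21 of the 27 other cells. Their median reads over the other cells were 17, 6 and 8. Lum was above 0 in 11 other cells, whereas Clec3b, Fbln1 and Col1a1 were in none. The markers of leukocytes, platelets, mesothelium, adipocytes, Schwann cells and red cells that had a row were at 0 in every other cell. Rows were present for 3 of 10 leukocyte, 3 of 5 platelet, 6 of 6 mesothelial and 5 of 7 red cell markers. For adipocytes only 1 of 6 (Adipoq) had a row, and for Schwann cells 1 of 4 (S100b). The paper counts Fabp4 among adipogenesis markers. Fabp4 was above 0 in 27 other and 55 stromal cells, and at 100 reads in 25 and 6. Of the lymphatic markers, Flt4 was above 0 in 2 other cells and Pdpn in none. Of the markers of pericytes and smooth muscle, Rgs5 was found in 3 other cells, and the others in none.

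Promoter sequence was at hand for 4 of the 8 genes, and it is shown here as a description. The sequences are the 250 bases before the start in RefSeq, in the build GRCm38.p6, all on the + strand, matched by symbol (the authors aligned to mm9). Capitals mark AGGAAG or CGGAAG on either strand, letters that the ETS family of transcription factors is known to favor. On the reverse strand these read CTTCCT or CTTCCG.
Cldn5 (chr16:18776597-18776846): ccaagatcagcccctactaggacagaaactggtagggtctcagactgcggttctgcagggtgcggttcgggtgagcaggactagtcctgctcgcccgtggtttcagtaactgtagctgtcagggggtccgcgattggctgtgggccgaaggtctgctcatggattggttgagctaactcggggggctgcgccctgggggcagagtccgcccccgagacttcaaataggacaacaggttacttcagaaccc
Egfl7 (chr2:26580833-26581082): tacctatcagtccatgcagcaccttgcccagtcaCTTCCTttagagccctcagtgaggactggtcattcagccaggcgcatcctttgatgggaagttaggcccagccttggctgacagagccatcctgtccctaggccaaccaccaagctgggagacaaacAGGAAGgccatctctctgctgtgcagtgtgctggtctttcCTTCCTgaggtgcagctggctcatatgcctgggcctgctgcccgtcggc
Emcn (chr3:137340828-137341077): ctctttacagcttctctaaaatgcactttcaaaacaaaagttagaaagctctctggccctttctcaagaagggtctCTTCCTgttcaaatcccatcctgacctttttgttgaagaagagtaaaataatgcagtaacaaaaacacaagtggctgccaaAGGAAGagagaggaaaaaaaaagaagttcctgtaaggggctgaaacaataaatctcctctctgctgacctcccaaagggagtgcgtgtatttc
Eng (chr2:32646345-32646594): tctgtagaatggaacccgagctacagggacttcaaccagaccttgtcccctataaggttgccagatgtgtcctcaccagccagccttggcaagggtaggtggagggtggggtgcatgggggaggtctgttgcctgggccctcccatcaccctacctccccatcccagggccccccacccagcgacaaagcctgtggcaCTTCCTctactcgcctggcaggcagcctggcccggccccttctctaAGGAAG

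The Cldn5 promoter held 0 matches, whereas Emcn held 2, Eng 2 and the first of the 3 listed Egfl7 starts 3. The other 2 Egfl7 starts held 1 and 0. Of 32851 promoters of the same length, 39.2% held at least 1 match. A match is a description of letters and does not show a site.

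Cdh5 codes for VE-cadherin, the cadherin that carries the adherens junction of endothelial cells. Its value was above 0 in 23 of 27 other cells (85.2%; 95% confidence interval, 66.3% to 95.8%) and in 7 of 58 stromal cells (12.1%; 4.99% to 23.3%). In the 23 other cells, the recovered reads were 3 at the lowest, 1167 at the median and 8743 at the highest. In the 7 stromal cells they were 2, 3 and 57. At 100 reads, 20 other cells and 0 stromal cells remained, so that no stromal cell reached this level. The mean log2(value + 1) was 7.07 ± 3.91 (SD) in the other cells and 0.31 ± 1.07 in the stromal cells. The gate had been set against the protein of this gene, and its mRNA was found in most of the other cells. Ly6a, which codes for the Sca1 of the gate, was above 0 in 21 of 27 other and 52 of 58 stromal cells, and Itgb1, which codes for CD29, in 12 and 35.

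**Figure D1:**
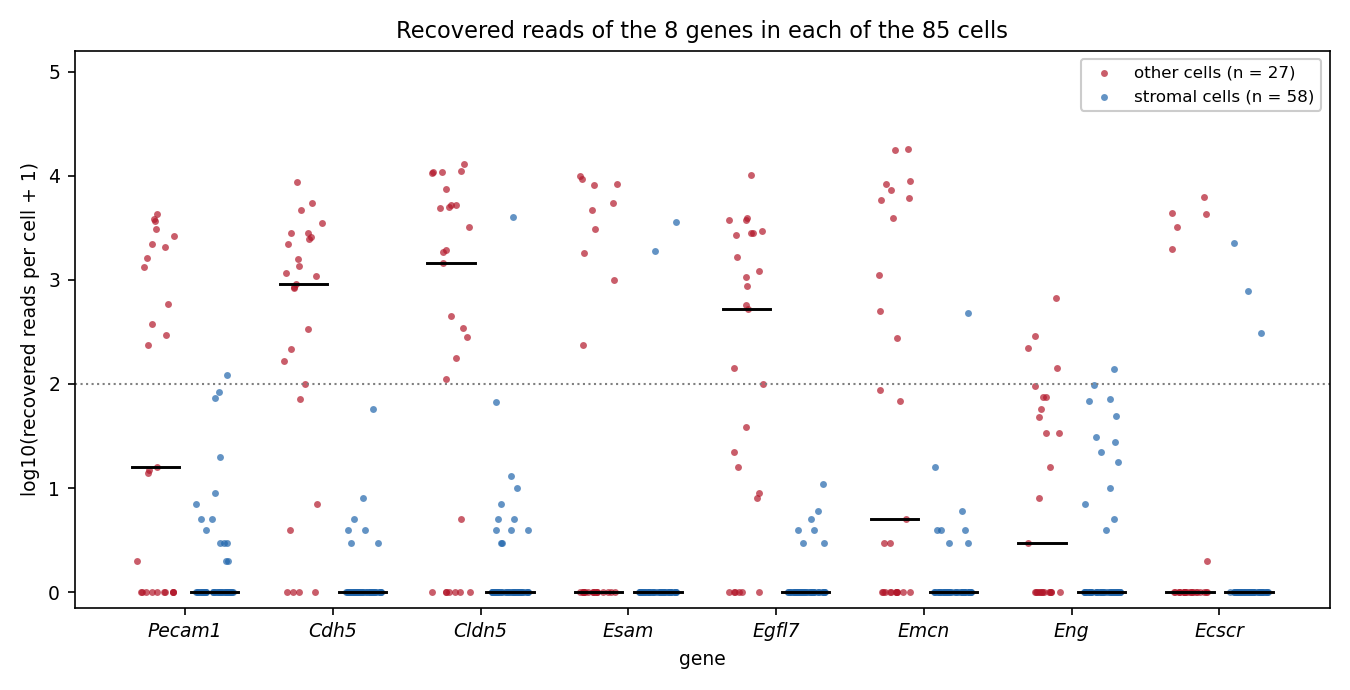
Recovered reads of each gene in each cell, as log10(reads + 1), for the 27 other cells (red) and the 58 stromal cells (blue). Each point is 1 cell, the black bars are medians and the dotted line is 100 reads; for Cdh5, 20 other cells and 0 stromal cells reach this line, and for Eng 4 and 1.

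Cldn5 codes for claudin-5, the main claudin of endothelial tight junctions. It was above 0 in 20 of 27 other cells (74.1%; 53.7% to 88.9%) and in 12 of 58 stromal cells (20.7%; 11.2% to 33.4%). The reads in these other cells were 4, 4080.5 and 12813 at the lowest, median and highest, and 19 of the 20 held at least 100. Of the 12 stromal cells, 9 held fewer than 10 reads and only cell 34 held more than 100, with 3974. Thus, most of the stromal cells with Cldn5 had few reads, at the low end of the range of the other cells. Mean log2(value + 1) was 7.41 ± 5.18 in the other cells and 0.62 ± 1.85 in the stromal cells.

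Esam codes for an adhesion molecule of the immunoglobulin family that sits at endothelial tight junctions. Values above 0 were found in 10 of 27 other cells (37.04%; 19.4% to 57.6%) and in 2 of 58 stromal cells (3.45%; 0.42% to 11.9%). Where it was found it was high, and no cell of either group held between 1 and 99 reads. The 10 other cells held 234 reads at the lowest, 5030.5 at the median and 9904 at the highest. The 2 stromal cells were cell 34 with 1893 reads and cell 18 with 3576, both within that range. Cell 18 held no other gene of the 8.

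Pecam1 codes for CD31, an adhesion molecule of endothelial cell contacts that is also found on platelets and leukocytes. This gene was above 0 in 17 of 27 other cells (62.96%; 42.4% to 80.6%) and in 14 of 58 stromal cells (24.1%; 13.9% to 37.2%), the highest stromal share of the 8 genes by values above 0. At 10 reads Eng had the highest, with 15.5%. In those 17 other cells the reads were 1, 1327 and 4248 at the lowest, median and highest, and in the 14 stromal cells 1, 4 and 122. At 100 reads it was found in 13 other cells and in 1 stromal cell, cell 34. The stromal share was therefore made up mostly of cells with fewer than 10 reads (10 of 14). Its mean log2(value + 1) was 5.73 ± 5.26 in the other cells and 0.81 ± 1.65 in the stromal cells.

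Egfl7 codes for a protein with epidermal growth factor-like domains that endothelial cells secrete into their matrix. It was above 0 in 21 of 27 other cells (77.8%; 57.7% to 91.4%), where the reads were 7, 1072 and 10056 at the lowest, median and highest. Among the stromal cells it was above 0 in 7 of 58 (12.1%; 4.99% to 23.3%), and the highest of them held 10 reads. At 100 reads, 15 other cells and 0 stromal cells remained, so that no stromal cell reached this level. The exons of Egfl7 overlap those of Gm20532 on the same strand and of Agpat2 on the other, and as the counting program is not given in the sources used here, reads of these genes may not be told apart.

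Emcn codes for endomucin, a sialomucin of capillary and venous endothelium. Cells above 0 were 16 of 27 other cells (59.3%; 38.8% to 77.6%) and 8 of 58 stromal cells (13.8%; 6.15% to 25.4%). In the 16 other cells the reads were 2, 2530 and 17931 at the lowest, median and highest, the widest range of the 8 genes. The stromal cells with Emcn held at most 484 reads (cell 34), and 6 of the 8 held fewer than 10. Its mean log2(value + 1) was 4.86 ± 5.37 in the other cells and 0.40 ± 1.42 in the stromal cells.

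Eng codes for endoglin, a coreceptor of the transforming growth factor-β family that is also known from mesenchymal stem cells, where it is called CD105. It was above 0 in 14 of 27 other cells (51.9%; 31.9% to 71.3%) and in 13 of 58 stromal cells (22.4%; 12.5% to 35.3%). The reads were low in both groups, with 2, 65.5 and 669 at the lowest, median and highest in the 14 other cells and 3, 27 and 138 in the 13 stromal cells, so that the ranges overlapped. At 100 reads, 4 other cells and 1 stromal cell remained. Of the reads of this gene, 76.5% were in the other cells, the lowest such share of the 8 genes. The mean log2(value + 1) was 2.87 ± 3.20 in the other cells and 1.10 ± 2.21 in the stromal cells. As for Pecam1, Esam, Emcn and Ecscr, the difference was below the SD of the other cells. Exons of Eng overlap those of Fpgs on the other strand, and the library kit does not mark the strand.

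Ecscr codes for an endothelial surface protein that acts on migration and apoptosis of these cells. It was the rarest of the 8 genes, above 0 in 6 of 27 other cells (22.2%; 8.62% to 42.3%) and in 3 of 58 stromal cells (5.17%; 1.08% to 14.4%). The other cells held 1, 3775 and 6255 reads at the lowest, median and highest, and the stromal cells 305 (cell 53), 781 (cell 31) and 2259 (cell 26). The intervals of the shares in the other and the stromal cells overlap, as those of Eng do, and the difference was not tested. An antisense gene overlaps the exons of Ecscr as well.

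Per kilobase of exon, the order of the mean levels in the other cells was led by Cldn5, with 915 ± 1107 CPM per kb (CPM of recovered reads per kilobase, mean ± SD, n = 27). Emcn followed with 424 ± 718, then Esam with 388 ± 660 and Egfl7 with 288 ± 424. Ecscr had 226 ± 505, Cdh5 168 ± 227 and Pecam1 90.9 ± 132. Eng was last with 6.94 ± 14.2 CPM per kb. For every gene the SD over cells was larger than the mean, and no neighbors in this order differed beyond their spread. Each gene was at 0 in at least 4 of the 27 other cells, and high in some of the rest.

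Set against the rest of the table, 0.828% of the 11478 genes that 3 or more cells held were found in a share of cells at least 25 percentage points higher in the other cells, and 18.6% in one at least 25 points higher in the stromal cells. Of the 8 genes, 7 were among the former and none among the latter. Ecscr was the exception, with a difference of 17.05 points. Eng was among the 7 by values above 0, at 10 reads and at a deposited value of at least 10 (25.2 points). At 100 reads its difference was 13.1 points. It was 23 points with Dcn of at least 100 and 23.03 with at least 4 of 7 stromal markers. By the size of the difference, Cdh5 ranked 1 of 11478, Egfl7 ranked 2 and Cldn5 ranked 11. Emcn ranked 19, Pecam1 35, Esam 52, Eng 70 and Ecscr 156. The median difference was 42.1 points over the 8 genes and -9.32 points over all genes. By the level, 6 of the 8 genes had a mean log2(value + 1) at least 2 higher in the other cells, compared with 1.09% of all genes. The exceptions were Eng, with a difference of 1.77, and Ecscr, with 1.74. The genes were chosen with earlier results of these data known, so these counts are a description of the 8 genes.

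**Figure D2:**
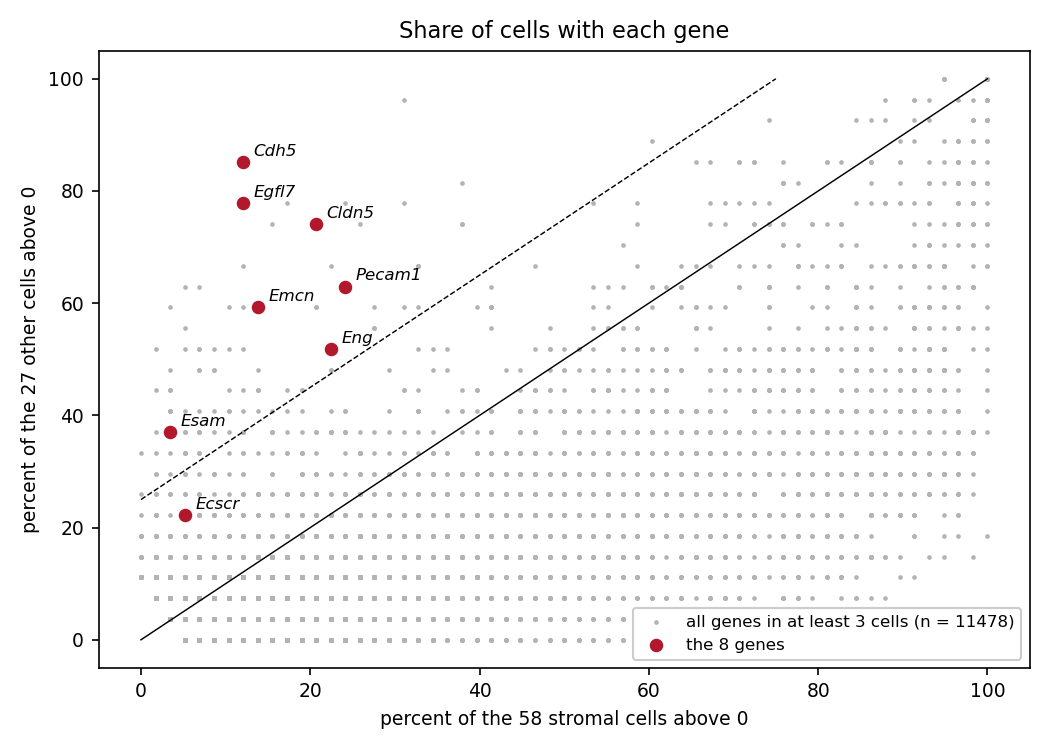
Percent of the 27 other cells (y axis) against percent of the 58 stromal cells (x axis) in which each gene was above 0, for all 11478 genes in at least 3 cells (grey) and the 8 genes (red). The solid line marks equal shares and the dashed line a share 25 points higher in the other cells; 7 of the 8 genes lie above the dashed line, and Ecscr lies under it.

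The low reads in the stromal cells had a counterpart in the other direction. Of 66 values above 0 of the 8 genes in stromal cells, 41 (62.1%) were under 10 reads, compared with 12 of 127 (9.45%) in the other cells. In the other cells, Dcn was above 0 in every cell with 4, 14 and 248 reads at the lowest, median and highest, whereas the stromal cells held 69, 96905 and 282890. Gsn, an actin-severing protein that was abundant in the stromal cells (median, 39337 reads), was above 0 in all 27 other cells with a median of 17 reads. The source of these low reads, and their part in the stromal shares, was not tested. With detection at 10 reads, the stromal share of Pecam1 was 6.90%, that of Cldn5 5.17%, those of Cdh5 and Egfl7 1.72% each and that of Emcn 3.45%. Those of Eng (15.5%), Ecscr (5.17%) and Esam (3.45%) moved less or not at all. At this level, 7 of the 8 genes still had a share at least 25 points higher in the other cells.

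The genes were found together in the same cells. The other cells held a median of 5 of the 8 genes (range, 0 to 8), and 19 of 27 (70.4%; 49.8% to 86.2%) held at least 4. The stromal cells held a median of 1 (range, 0 to 5), and 2 of 58 (3.45%; 0.42% to 11.9%) held at least 4, whereas 20 held none. Cell 65 was the only cell with all 8. At 100 reads, at least 4 of the genes were found in 14 of 27 other cells and 1 of 58 stromal cells.

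**Figure D3:**
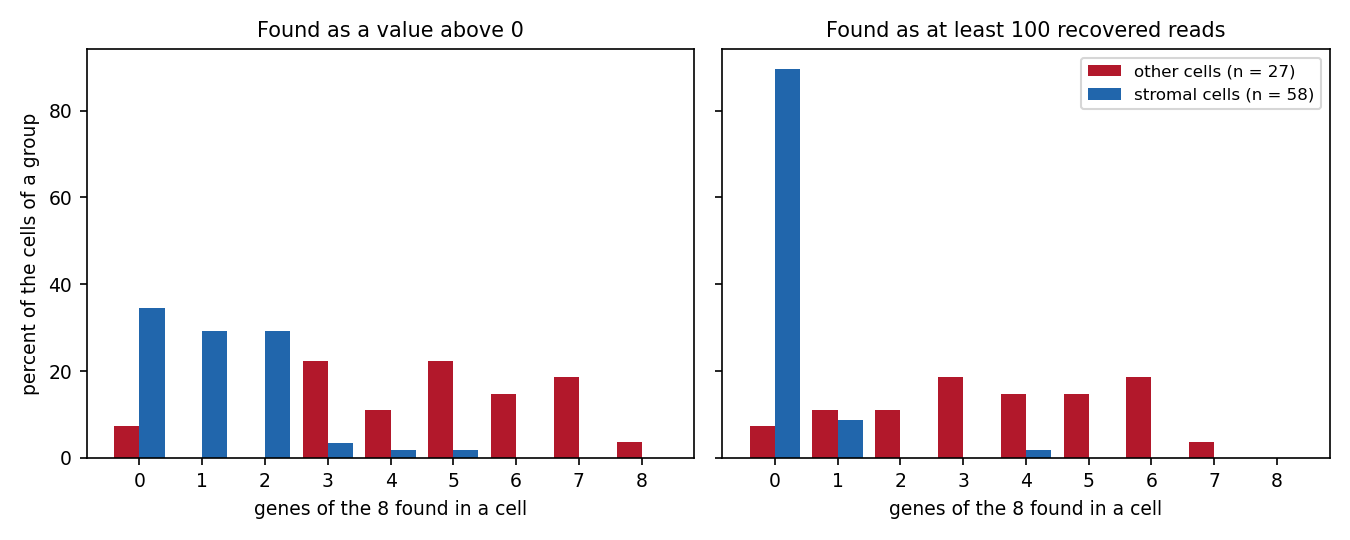
Percent of the 27 other cells (red) and of the 58 stromal cells (blue) by how many of the 8 genes a cell held, with a value above 0 (left) and with at least 100 recovered reads (right). The other cells spread from 0 to 8 genes with a median of 5, and the stromal cells lie mostly at 0 to 2.

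Cells 67 and 89 were the 2 other cells without any of the 8 genes, and they had 285 and 405 genes above 0. Cell 13, with 377 genes, held 178 reads of Cldn5, 3 of Cdh5 and 2 of Emcn. These 3 cells had the fewest genes of the table, although their recovered reads were within the range of the rest. Each of the 24 other cells with at least 500 genes held at least 3 of the 8 genes, and each held at least 1 at 100 reads. Among these, 79.2% held at least 4. Over the other cells, the number of the 8 genes found went with the number of genes above 0 (Pearson's r = 0.77 and Spearman's rho = 0.71 over 27 cells; 0.59 and 0.60 over the 24 cells). It did not go with the number of recovered reads (r = -0.28 and rho = -0.12). These are descriptions over cells of 1 sample, and both counts come from the same library.

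Few cells shared the same set of genes. At 100 reads, 25 of the other cells held at least 1 of the 8 genes, in 20 different sets, 16 of which were seen in 1 cell each. The most frequent set was Pecam1, Cdh5, Cldn5, Egfl7 and Emcn, in 3 cells. At this level Cdh5 or Cldn5 was found in 24 of the 27 other cells, and Cdh5, Cldn5 and Egfl7 together in 11. As a result, no single gene marked all of these cells, and the pair of Cdh5 and Cldn5 covered nearly all of them.

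**Figure D4:**
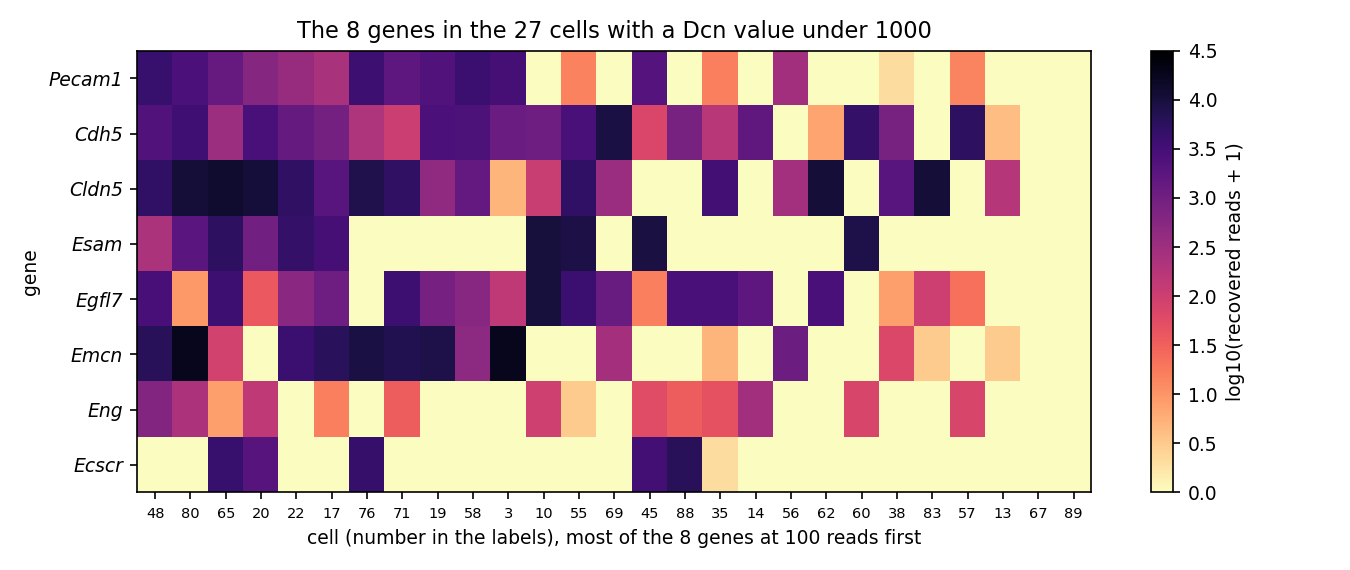
Recovered reads, as log10(reads + 1), of the 8 genes (rows) in the 27 other cells (columns, numbered as in the labels), with the cells that held most of the genes at 100 reads first. Cells 67 and 89 are at 0 for every gene, and Esam and Ecscr are at 0 in most cells but dark in those that hold them.

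Among pairs, Cdh5 at 100 reads was in 14 of the 15 other cells with Egfl7, in 9 of the 10 with Esam and in 15 of the 19 with Cldn5. At this level Cdh5 was in 74.1% of the 27 other cells, a share against which these counts are read. Read the other way, of the 20 cells with Cdh5, 14 held Egfl7, 9 held Esam and 15 held Cldn5. Pecam1 was in 10 of the 11 cells with Emcn, and Emcn in 10 of the 13 with Pecam1. Counting every value above 0, all 10 Esam, all 14 Eng and all 6 Ecscr cells among the other cells also held Cdh5, and all 16 Emcn cells also held Cldn5. Cdh5 itself was in 23 of the 27 cells. Cldn5 was in 9 of the 14 Eng cells and 4 of the 6 Ecscr cells, and Emcn in 5 of the 10 Esam cells and 6 of the 14 Eng cells. All 28 pairs were found together at 100 reads in at least 1 other cell.

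Across the 27 other cells, the correlation of log2(value + 1) between pairs of the genes had a median r of 0.20 (range, -0.13 to 0.71), and it was above 0 for 23 of 28 pairs. Pecam1 and Emcn had the highest r (0.71), and Emcn and Ecscr the lowest. Over all 85 cells the median was 0.40, a value that also holds the difference between the groups. These correlations share the number of genes found per cell, and the weaker ones are not findings.

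**Figure D5:**
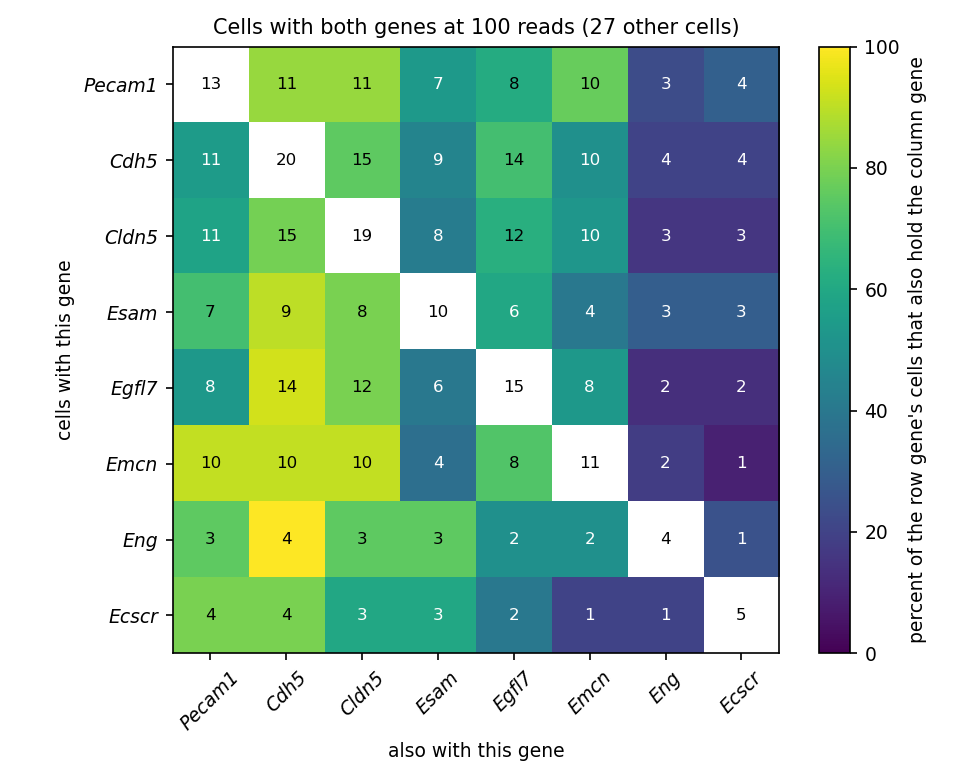
Number of the 27 other cells that held both genes of a pair at 100 reads (numbers in the squares; the diagonal gives the cells with the gene itself). Color gives this number as a percent of the cells with the gene of the row: 14 of the 15 Egfl7 cells held Cdh5, and 10 of the 11 Emcn cells held Pecam1.

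Of the 38 stromal cells with a value above 0 of any of the 8 genes, 17 held 1 and 21 held more. At 10 reads, 17 of the 19 stromal cells with any of the genes held 1 alone. Eng was at 10 reads or more in 9 stromal cells, and none of these held another of the 8 genes at 10 reads. They held between 30886 and 267964 reads of Dcn. In contrast, each of the 12 other cells with 10 reads of Eng held another of the genes at that level, and 10 of them held at least 3. The same was seen for Ecscr, as its 3 stromal cells held no other of the 8 genes at 10 reads. Cell 34 differed from the rest of the stromal cells, with 122 reads of Pecam1, 57 of Cdh5, 3974 of Cldn5, 1893 of Esam and 484 of Emcn. It also held 73060 reads of Dcn, 6 of 7 stromal markers at 100 reads and 3683 genes. Whether this well held 1 cell was not tested. Without it, the share of stromal cells with at least 4 of the genes was 1.75%. Cell 54, the other stromal cell with at least 4, held between 6 and 15 reads of each.

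The lists of related genes are read against the 0.828% of all genes that were at least 25 points higher in the other cells, the 18.6% that were so in the stromal cells, and the median difference of -9.32 points over all genes. Median differences were 6.32 points for the adherens junction partners, 0.26 for the tight junction partners, -7.34 for the genes of leukocyte passage and -15.5 for the partners of endoglin. They were 20.1 for the other endothelial surface genes and 14.8 for the endothelial transcription factors. Of the partners of VE-cadherin at the adherens junction, 12 genes were above 0 in at least 3 cells, and 2 had a share at least 25 points higher in the other cells. Ptprb, the endothelial phosphatase VE-PTP that binds VE-cadherin, was above 0 in 18 other and 13 stromal cells, at 100 reads in 13 and 1. Rasip1, a Rap1 effector of vessel lumens, was above 0 in 11 and 2. Cdh13, an atypical cadherin, and Afdn, a linker of junctions to actin, were found in 10 and 14 other cells and in 9 and 20 stromal cells. At 100 reads, Cdh13 was found in 9 other cells and 1 stromal cell, and Afdn in 8 and 14. Rap1b, a small GTPase that acts on cell contacts, was higher in the stromal cells (9 other and 42 stromal cells), and Krit1 was found in 1 and 15. By the level, Ptprb, Rasip1 and Cdh13 were higher in the other cells, with differences of 4.97, 3.07 and 3.10 in mean log2(value + 1). Rap1b and Krit1 were lower there, with differences of -4.13 and -2.03. Thus, the cadherin itself, its phosphatase and Rasip1 were more frequent in the other cells. By values above 0, most other partners lay within 25 points between the groups.

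Of 8 tight junction partners none passed 25 points in either direction by values above 0. F11r, which codes for the junctional adhesion molecule JAM-A, came nearest with 11 other and 10 stromal cells, at 100 reads in 11 and 3. Jam2 was above 0 in 17 other and 35 stromal cells. Cldn15 was found in 5 and 4, Marveld2 in 1 and 0, Cgnl1 in 1 and 5, and Jam3 in 1 and 7. By the level, F11r was higher in the other cells, with a difference of 2.86 in mean log2(value + 1). Of the gap junction genes, Gja1, which codes for connexin 43, was higher in the stromal cells (4 other and 27 stromal cells), and Gja4 and Gjc1 were found in at most 5 cells of a group.

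Of 7 genes for the passage of leukocytes, Podxl, a sialomucin like endomucin, was higher in the other cells (9 other and 3 stromal cells), and Icam2 was found in 7 and 2. Cd47, a ligand found on most cells, was higher in the stromal cells (9 and 52). Nectin2, Pvr and Cd99l2 were found in 2, 4 and 1 other cells and in 0, 8 and 8 stromal cells. Of 12 partners and targets of endoglin, Id1, a target of bone morphogenetic protein signals, was higher in the other cells (18 and 19 cells) and 4 were higher in the stromal cells. Among the latter were Tgfbr2, the type II receptor of transforming growth factor-β (2 and 45 cells), and Tgfbr3, its coreceptor betaglycan (6 and 44 cells). Smad1 was found in 7 and 14 cells, Smad6 in 1 and 5 and Smad7 in 3 and 13. Eng itself (14 and 13 cells above 0) had a difference of 29.4 points. At 100 reads (4 and 1 cells) its difference was 13.1 points.

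Of 18 other endothelial surface genes, 9 were higher in the other cells and 2 in the stromal cells. Cd36, a fatty acid and thrombospondin receptor, was above 0 in 26 of 27 other and 18 of 58 stromal cells. Flt1, a receptor of vascular endothelial growth factor, was found in 21 and 10, Cd93 in 16 and 2, and Gpihbp1, which carries lipoprotein lipase across capillaries, in 21 and 14. Cd34 (6 and 38 cells) and Thbd, which codes for thrombomodulin (6 and 45 cells), were higher in the stromal cells. Of 11 endothelial transcription factors, Sox18 (10 and 2 cells), Fli1 (10 and 4) and Ets1 (10 and 5) were higher in the other cells and Klf4 (13 and 52) in the stromal cells. Sox17 was found in 6 and 3 cells and Lmo2 in 3 and 20. Among 10 genes of the response to dissociation, Hspa1a was higher in the other cells (24 and 35 cells) and 4 were higher in the stromal cells, among them Fosb (9 and 48). No list was tested against another.

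The genes most like the mean of the 8 over all 85 cells (Pearson's r of log2(value + 1), among 6120 genes above 0 in at least 10 cells) were Cd36 (r = 0.81), Gpihbp1 (0.80), Fabp4 (0.77), Tspan13 (0.77) and Cd93 (0.73), followed by Adgrf5 (0.72), Tcf15 (0.71), Itga6 (0.71), Car4 (0.69) and Cav1 (0.69). As for the pairs, r over all 85 cells also holds the difference between the groups. Tspan13 was at 100 reads in 14 other cells and 1 stromal cell, and Tcf15, Itga6 and Car4 in 13, 12 and 12 other cells and in no stromal cell. Within the 27 other cells alone, the genes most like the mean included Gm37376 (0.70), Sparc (0.70), Rps16-ps2 (0.69) and Rps16 (0.68). All 4 of these were above 0 in most stromal cells as well. None of them was among the 10 over all cells, and within the other cells the number of the 8 genes found went with the number of genes above 0 (r = 0.77). The part of this number in these correlations was not tested.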

How the data were processed

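Single PV-ADSCs of 8-week-old mice were sorted into wells, and RNA libraries were made with SMARTseq v4. Per the labels, the submitters' notes name HISAT2 2.0.5, SAMtools 1.4, StringTie 1.3.3 and mm9. What the authors deposited is a signal: scaled reads of 16069 genes for each of 85 cells. For the scaling, the paper names scater with its default setting. The sources used here do not describe factors that differ between groups of genes within a cell, as were found below. Whether the named scaling gave these factors was not tested. The program that counted reads is not given in the sources used here.

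Within each cell, genes fell into groups whose values were multiples of 1 step, and division by the step gave recovered reads. There were 13 groups of 113 to 810 genes, with factors from 0.0157 to 94.5. Of 165973 values in genes above 0 in at least 10 cells, 10 were not whole, and 99.994% were whole with their own step, compared with 0.00208% with that of another group (relative tolerance, 2e-09). Genes above 0 in fewer cells, such as Ecscr, held whole numbers and were used as they stood. On simulated data 100% of values of 16069 genes were recovered. The simulated factors were drawn with a narrower spread than 0.0157 to 94.5, so recovery at the extreme factors was not tested there.

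Detection was a value above 0, with 10 and 100 recovered reads and a deposited value of at least 10 as alternatives. Levels were the mean ± SD of log2(value + 1). Intervals are exact Clopper-Pearson 95% intervals. They cover counting error only, as do limits for a count of 0 (3 cells), and reads without molecular identifiers are not independent molecules. The groups of cells were cut from 1 sample, so there was no test. Alternatives were other Dcn limits, the rule of 4 of 7 stromal markers at a value of 100, thinning to 1146945 reads, other pseudocounts and other filters. Leaving out cells under 500 genes, cell 34 or cell 50 was chosen after seeing the data. Exon lengths are from GENCODE M21, which is of another build than mm9.

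The 8 genes and the gene lists were chosen with earlier results of these data known. Beside the 8 genes, the text names Dcn, the genes of the gate, up to 4 genes of each list with the largest and 2 with the smallest difference in share, and the genes most like the mean of the 8 (10 over all cells, 5 in the other cells, 1 of which is not reported here). Col1a1, Gsn and Fabp4 in cell 50 were named for the check of the groups. Doublets were not called. Ptprc, Prox1 and Lyve1 were not analysed here. Python 3.11.15, numpy 2.4.6, pandas 2.3.3, scipy 1.17.1 and matplotlib 3.10.9 were used.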

Additional observations from a re-analysis of the deposited data

How the results depend on the processing

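The number of the 8 genes with a share at least 25 points higher in the other cells was 7 and stayed at 6 or 7 under every alternative run. It was 6 with detection at 100 reads, with Dcn of at least 100 and with at least 4 of 7 stromal markers, where Eng had differences of 13.1, 23 and 23.03 points. With genes above 0 in at least 10 cells, 1.49% of genes passed this limit in place of 0.828%, as fewer genes were counted. No share difference or level difference of the 8 genes turned its direction. The share of other cells with at least 4 of the genes ranged from 51.9% (detection at 100 reads) to 79.2% (cells under 500 genes left out), and that of stromal cells from 1.72% to 6.67%. With every cell thinned to 1146945 reads, Cdh5 was found in 23 other and 6 stromal cells and Cldn5 in 20 and 8. No paired analysis was possible because all cells belong to 1 group and no animal is named. In the thinned cells Eng was found in 14 and 12 cells and Ecscr in 5 and 3.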

Other observations

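Rgs5, a gene of pericytes, was above 0 in 3 other cells and in no stromal cell. Cell 17 held 3478 reads of Rgs5, cell 38 held 2943 and cell 80 held 1065. Cells 17 and 80 each held 7 of the 8 endothelial genes above 0, and 6 of them at 100 reads, whereas cell 38 held 5 and 2. The other pericyte and smooth muscle markers listed, such as Pdgfrb, Abcc9, Notch3, Des and Kcnj8, were at 0 in these cells.

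The deposited value and the recovered reads of the same gene could stand far apart in cell 50. Its 66 reads of Cldn5 were deposited as a value of 1.04, its 1 read of Pecam1 as 11 and its 1393 reads of Gpihbp1 as 45040.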
